A study of Mus musculus with 16 samples.

Results

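The actins, tropomyosins and smooth muscle contractile genes examined here are *Acta1*, *Acta2*, *Actc1*, *Actg2*, *Tagln*, *Cnn1*, *Smtn*, *Mylk*, *Tpm1* and *Tpm2*. Every microarray probe that carried 1 of these 10 gene names in the deposited scanner output was included, which gave 17 of 55681 probes. The samples were cardiomyocytes (CMs) of wild-type CD1 mice, taken at embryonic day (E) 15.5 or postnatal day (P) 2 and separated by flow sorting into cells with low and cells with high surface integrin alpha 6 (ITGA6, CD49f). The study asked whether this surface protein separates ventricular from atrial CMs. The 4 groups were EL (E15.5, ERBB-2+ and ITGA6low), EH (E15.5, ERBB-2+ and ITGA6high), PL (P2, ITGA6low) and PH (P2, ITGA6high). The E15.5 cells were gated on the receptor ERBB-2, whereas non-myocytes were removed from the P2 cells with a magnetic kit before sorting and ERBB-2 was not used. Each group held 4 samples, numbered 2, 3, 6 and 8 at E15.5 and 2, 3, 4 and 5 at P2, and each sample pooled cells of 20 to 30 embryonic or 15 newborn hearts, with at least 50000 cells per fraction and 10 ng of RNA. A sample is therefore a pool of animals, and no animal was measured singly.

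Actin filaments are the tracks on which myosin pulls. Cardiac and skeletal alpha-actin build the thin filaments of the sarcomere, and the smooth muscle actins build those of vessels and viscera, although smooth muscle alpha-actin is also made by the early heart. Tropomyosin lies along the actin filament and, together with troponin or caldesmon, governs the access of myosin, while transgelin, calponin and smoothelin bind actin in smooth muscle cells and myosin light chain kinase switches smooth muscle myosin on.

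Levels are normalized signal intensities: the processed signal of each probe, quantile normalized over the 16 microarrays, in arbitrary units that can be compared between samples for 1 probe but not between probes. Groups were compared on the log2 scale with limma, with p-values adjusted by Benjamini-Hochberg over all 55681 probes, and a probe was past the test at an adjusted p of at most 0.05. A probe counted as measured on a microarray where the software marked it as well above background. Of the 17 probes, 13 reached this mark on each of the 16 microarrays, and all 17 on every microarray of at least 1 group. Of all 55681 probes, 39.95% did so on every microarray of at least 1 group. The shares of all probes given below thus include many that were not measured, unlike the 17, and are not shares of equally measured probes. Over all probes, the share well above background was 38.8 to 41.0% in EL and 40.9 to 46.5% in EH, against 35.7 to 39.8% in PL and 37.0 to 40.6% in PH. Fewer cells of a type and less RNA per cell cannot be told apart in these pooled samples.

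Atrial and ventricular markers separated the fractions at both stages. The summed signal of 4 atrial markers, among them *Nppa* (atrial natriuretic peptide), was 18615 to 24334 in EL and 409195 to 432380.0 in EH, and 11263 to 50286 in PL and 609730.0 to 709737 in PH. The sum of 4 ventricular markers, among them *Myl2* (ventricular myosin light chain), was 456777 to 477728 in EL and 140389 to 224901 in EH, and 325199 to 363679 in PL and 22463 to 34593 in PH. All 4 atrial markers were past the test upwards and all 4 ventricular markers downwards in the high fraction at both stages.

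The 10 genes did not share 1 direction between the fractions. In ITGA6high CMs the calponin-family gene *Tagln*, the kinase gene *Mylk* and the tropomyosin gene *Tpm2* had the higher signals at both stages, *Mylk* on 1 of its 2 probes and near background, and *Cnn1*, also of the calponin family, at P2. The smooth muscle *Acta2* and the sarcomeric *Acta1* had the lower signals at P2. The differences of *Cnn1*, *Tagln* and *Acta2* were wider at P2 than at E15.5, which for *Tagln* did not pass with the sample number as a block. Slide and sorting procedure also differed between the stages. In EH against EL, 6 of the 17 probes were past the test, all higher, of 4 genes, with 8.10% of all probes past it in either direction, 4.27% higher and 3.83% lower. With the sample number as a block the count was 5 higher and 1 lower, since *Acta2* passed downwards and the brightest *Tpm1* probe no longer passed. In PH against PL, 7 probes of 6 genes were past it, 5 higher and 2 lower, against a background of 11.6% in either direction, 6.15% higher and 5.41% lower. At the 3-fold limit of the study's methods, 0 of the 17 probes were past the test in EH against EL (1.17% of all probes higher, 0.454% lower), and 5 higher and 1 lower in PH against PL (1.73% higher, 0.916% lower). Of these 5, *Mylk* counts by its fitted value only, since its bound given below is under 3-fold. The signals of the 4 samples of each fraction did not overlap for 10 probes at E15.5, where 16.1% of all probes did not, and for 7 probes at P2, where 12.8% did not. The median log2 difference of the 17 probes was 0.31 in EH against EL and 0.03 in PH against PL, beside -0.05 and -0.02 over all probes well above background.

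**Figure D1:**
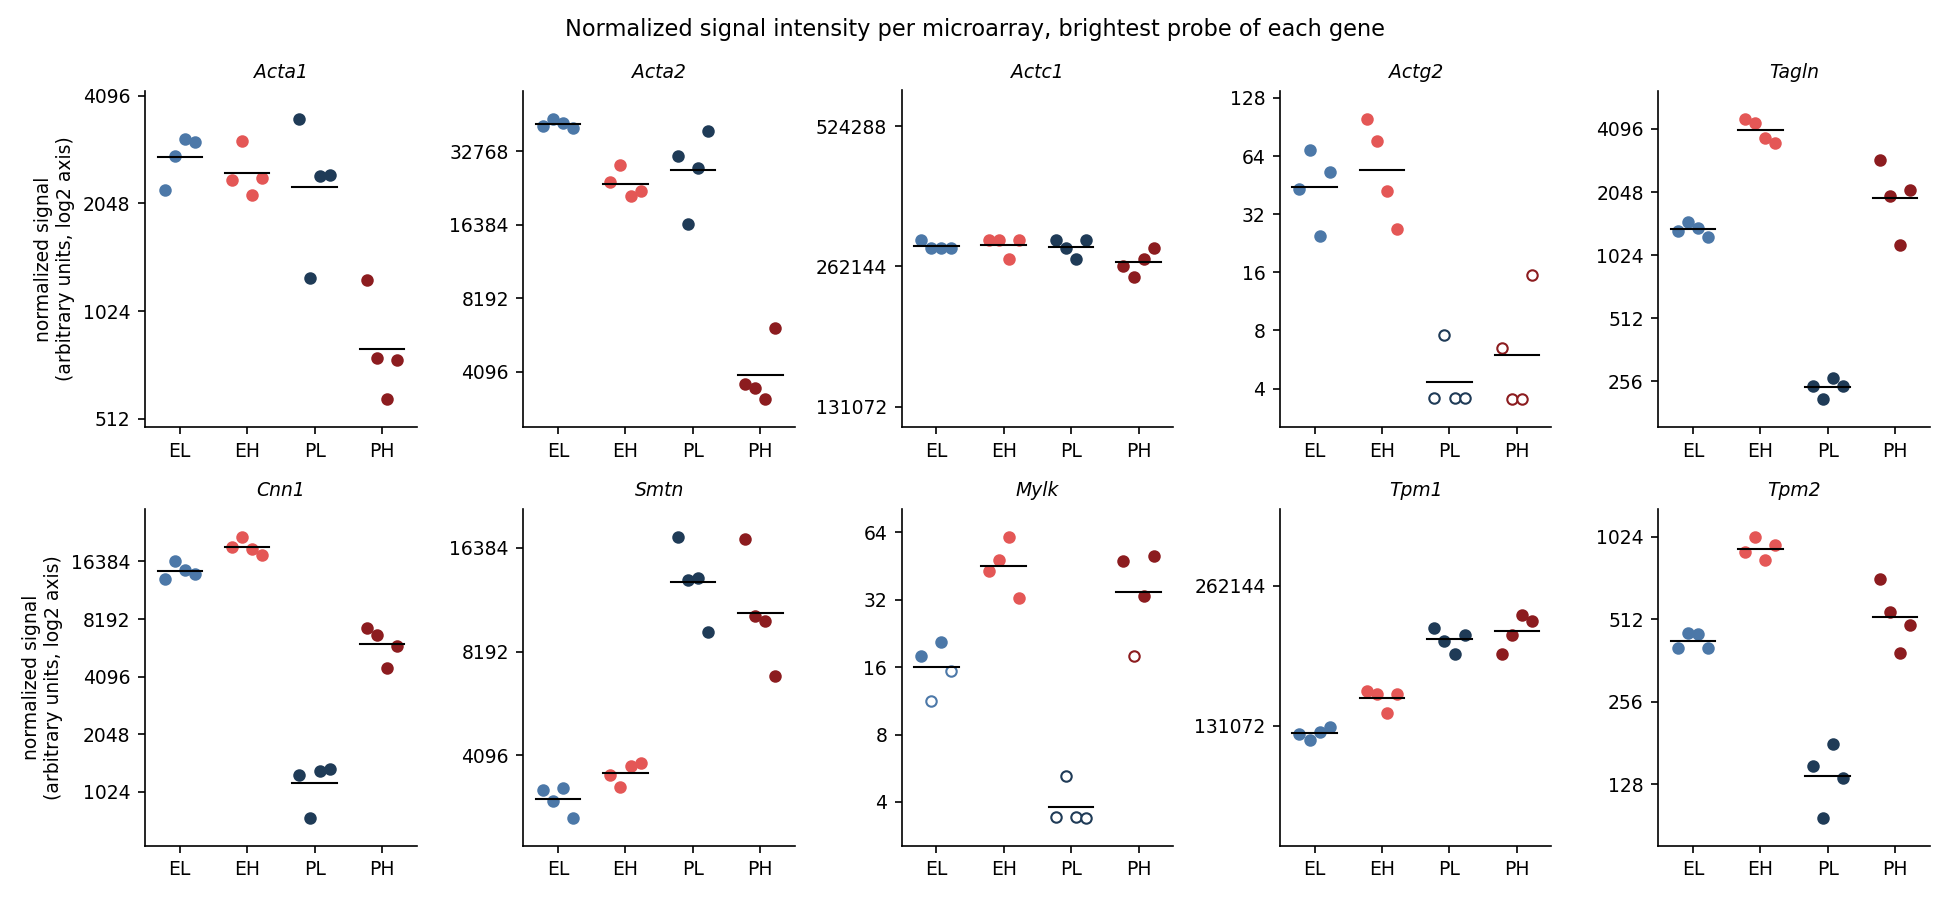
Normalized signal intensity (log2 axis, arbitrary units) of the brightest probe of each of the 10 genes on each of the 16 microarrays, by group (EL, EH, PL, PH). Each point is 1 sample, an open point is not well above background, and the black line is the mean of the log2 signals. *Acta2* is lowest in PH, with 3169 to 6198, and *Tagln* is lowest in PL, with 211 to 266.

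*Actc1*, cardiac alpha-actin and the main thin filament actin of the working heart, gave one of the brightest signals on every microarray. In EL it stood at 297935 in sample 2 and at 286777 in samples 3, 6 and 8, and in EH at 297935 in samples 2, 3 and 8 and at 272116 in sample 6. In PL the signals were 297935, 286777, 272116 and 297935, and in PH 263115, 248552, 272116 and 286777. The values repeat because quantile normalization assigns a signal by rank, and *Actc1* ranked between 2 and 6 among all probes on every microarray. Before normalization its processed signal averaged 285891 ± 17835 in EL (SD, n = 4) and 287878 ± 15894 in EH, against 294632 ± 51828 in PL and 274570 ± 24869 in PH. None of its 5 comparisons passed the test, and the log2 difference was 0.01 in EH against EL and -0.11 in PH against PL (adjusted p = 0.984 and 0.324). Its direction in EH against EL was not stable, since it was -0.24 when signals were scaled to the 75th percentile instead.

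*Acta1*, skeletal alpha-actin, which the fetal heart makes beside the cardiac form, fell in the high fraction at P2. Its signals were 2234, 2781, 3107 and 3045 in EL and 2378, 3063, 2161 and 2419.5 in EH. In PL they were 3535, 1265, 2448 and 2456, and in PH 1251, 756, 582 and 747. The E15.5 fractions overlapped, whereas every PH sample lay below every PL sample, by a narrow margin between PL 3 and PH 2. PH was 2.84-fold lower than PL (log2 difference -1.51, adjusted p = 0.00224), and EH against EL gave -0.16 (adjusted p = 0.866). The P2 call was lost when only PL and PH entered the fit (adjusted p = 0.0541). From high to low the mean signals ordered as EL 2792 ± 398, EH 2505 ± 389, PL 2426 ± 927 and PH 834 ± 289.5 (SD, n = 4), and the ranges of the first 3 overlapped. The probe lies at chr8:126416197-126416256 on the minus strand of mm9, in the coding part of a gene whose relatives are close to it in sequence, and how far other actin transcripts add to its signal was not tested.

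*Acta2*, smooth muscle alpha-actin, fell in the high fraction at P2. EL gave 41639, 44610.4, 42841 and 40841, and EH 24559, 28736, 21432 and 22435. PL gave 31224, 16467, 27962 and 39818, and PH 3647, 3521, 3169 and 6198. Neither pair of fractions overlapped, and PL 3 stood lowest within PL. PH was 6.90-fold lower than PL (log2 difference -2.79, SE 0.244, adjusted p = 2.94e-06). EH was 1.76-fold lower than EL (-0.81), which missed the threshold with an adjusted p of 0.0602 but passed it with the sample number as a block (adjusted p = 0.0178). In all it passed in 11 of 29 alternative fits, with adjusted p-values of 0.0025 to 0.413 over the 29. Within the slides that held both E15.5 fractions the difference was -0.72 on slide 1 and -1.03 on slide 2. The order of mean signals was EL 42483 ± 1639, PL 28868 ± 9662, EH 24291 ± 3238 and PH 4134 ± 1391 (SD, n = 4), with PL and EH overlapping.

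*Actg2*, the gamma-actin of visceral smooth muscle, was measured at E15.5 only. The signals were 43.4, 69.0, 24.7 and 52.9 in EL and 100.1, 76.2, 42.2 and 27.0 in EH, all well above background and overlapping. No PL or PH sample was well above background, with values of 3.53 to 15.5. The E15.5 fractions differed by 0.29 on the log2 scale (adjusted p = 0.868).

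Start-proximal sequence is shown for the 3 alpha-actin genes because they encode closely related proteins and differed in their pattern across the fractions. Each line gives the 100 bases before the annotated start of the gene from RefSeq (GRCm38.p6), on the gene's own strand, and capitals mark a CArG box, the binding motif of serum response factor (CC, then 6 bases that are each A or T, then GG), or a match with 1 of the 6 inner bases being C or G.
Acta1, chr8:123894776-123894875, minus strand: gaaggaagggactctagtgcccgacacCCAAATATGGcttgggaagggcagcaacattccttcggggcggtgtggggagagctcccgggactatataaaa
Actc1, chr2:114052876-114052975, minus strand: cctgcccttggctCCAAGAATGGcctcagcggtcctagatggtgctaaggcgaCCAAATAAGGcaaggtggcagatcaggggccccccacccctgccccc
Acta2, chr19:34255374-34255473, minus strand: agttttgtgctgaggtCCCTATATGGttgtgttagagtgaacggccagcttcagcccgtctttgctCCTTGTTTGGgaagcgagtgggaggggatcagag
The motif was searched from 250 bases before to 50 after the start on both strands, and 1.63% of the 32851 promoters in the table held a strict box and 9.98% a box or a match with 1 inner base off. *Acta1* held a strict box 73 bases before its start and *Actc1* 1 at 47 bases, while both matches of *Acta2*, at 84 and 34 bases, had 1 inner base off. Further matches with 1 inner base off lay 205 and 154 bases before the start of *Acta1* and 175, 138 and 87 bases before that of *Actc1*. *Cnn1*, *Mylk*, *Smtn*, *Tpm1* and *Tpm2* had neither in this window, and *Tagln* and *Actg2* were not in the table. These are matches of letters and not measured binding.

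*Tagln*, transgelin or SM22, an actin-binding protein of the calponin family, rose in the high fraction at both stages. In EL its signals were 1339.8, 1473, 1384 and 1251, and in EH 4588, 4387, 3722 and 3509.5. In PL they were 243, 211, 266 and 243, and in PH 2925, 1957, 1138 and 2104. The 4 groups did not overlap except EL and PH, and PL was the lowest group. EH was 2.96-fold above EL (log2 difference 1.57, SE 0.211, adjusted p = 0.000268), and PH was 8.03-fold above PL (3.005, adjusted p = 3.47e-07). Within slide 1 the E15.5 difference was 1.67 and past the test, and within slide 2 it was 1.38 (adjusted p = 0.0758). Slide 2 held 1 EH and 2 EL samples, and the lone EH sample is assumed to vary like the other groups, so that a missed threshold there says little.

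*Cnn1*, calponin 1, which binds actin and dampens the myosin ATPase in smooth muscle, rose in the high fraction at P2. The EL signals were 13204, 16420.1, 14720.3 and 14127, and the EH signals 19469, 21997, 19127 and 17753. The PL signals were 1243, 748, 1309 and 1336, and the PH signals 7393, 6748, 4556 and 5940.2. All 4 groups were apart, in the order EH, EL, PH and PL, and PL 3 lay below the other PL samples. PH was 5.37-fold above PL (log2 difference 2.42, SE 0.184, adjusted p = 7.05e-07). EH lay 0.42 above EL on the log2 scale without passing the test (adjusted p = 0.238). It passed in 1 of 29 alternative fits, when only EL and EH entered the fit (adjusted p = 0.0301).

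*Smtn*, smoothelin, an actin-associated protein of contractile smooth muscle, passed the test between stages but not between fractions. Its brighter probe (NM_001159284) gave 3254, 3011, 3289 and 2702 in EL and 3602, 3317, 3803 and 3893 in EH. It gave 17621, 13244, 13361 and 9355 in PL and 17383, 10409.6, 10074 and 6948 in PH. The P2 fractions overlapped, and the E15.5 fractions lay apart by a small margin. The log2 differences were 0.26 in EH against EL (adjusted p = 0.658) and -0.30 in PH against PL (adjusted p = 0.562). The dimmer probe (NM_013870) had differences of 0.31 and -0.37 in the same comparisons, with adjusted p-values of 0.318 and 0.168. Its P2 difference passed in 1 of 16 fits that left out 1 sample (adjusted p = 0.0440).

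*Mylk*, myosin light chain kinase, gave signals near the background, and its 2 probes differed in what they measured. The probe for NM_139300, at chr16:35001266-35001325 (mm9), gave 18.0, 11.3, 20.8 and 15.4 in EL and 43.0, 48.3, 61.0 and 32.7 in EH. It gave 3.44, 5.23, 3.43 and 3.40 in PL and 47.8, 17.9, 33.3 and 50.03 in PH. It was well above background on 2 of 4 EL, 4 EH, 0 PL and 3 PH microarrays, so that PL has only an upper bound and EL was measured in part. EH lay 1.497 above EL on the log2 scale (SE 0.311, adjusted p = 0.00732), with 11.3 and 15.4 in EL below the mark, and the difference was 0.52 with normexp background correction, whose offset of 50 compresses signals of this size. PH was at least 1.78-fold above PL, where the bound sets PH against a limit of measurement in place of the PL signals (adjusted p = 8.02e-06), and the difference with normexp was 0.67 on the log2 scale. Within slides 1 and 2 the E15.5 difference was 1.29 and 1.99 (adjusted p = 0.134 and 0.0706). The second probe (AK044527), at chr16:34953958-34954017, was well above background on 0 EL, 4 EH, 2 PL and 1 PH microarrays, and its signals of 10.5 to 21.8 passed the test in no comparison of the main fit. It passed in 5 of 29 alternative fits for EH against EL and in 8 of 26 for PL against EL.

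**Figure D2:**
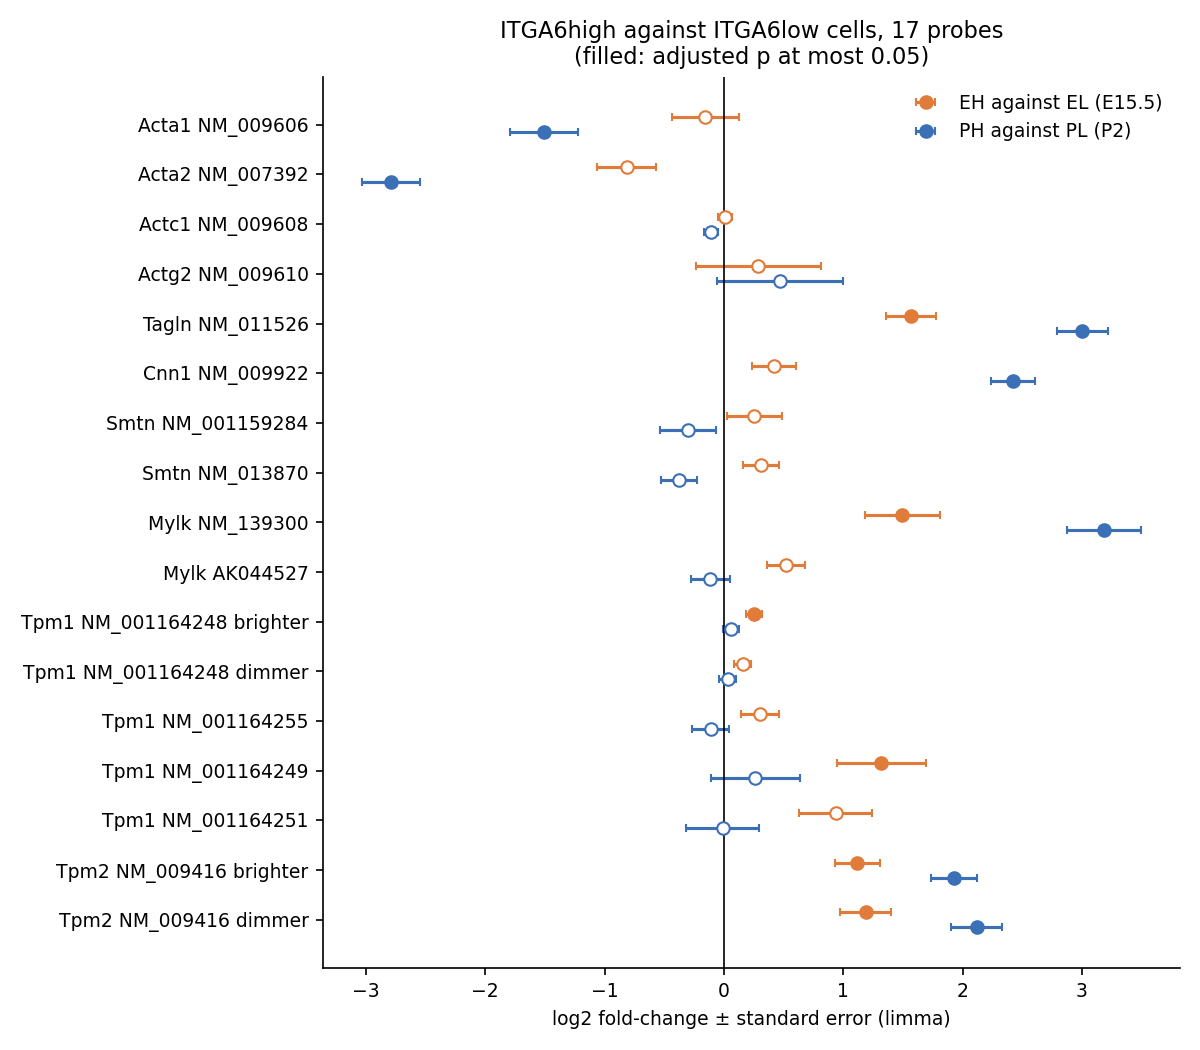
Log2 fold-change between ITGA6high and ITGA6low cells for the 17 probes, at E15.5 (orange, EH against EL) and at P2 (blue, PH against PL), with bars of 1 SE from the limma fit. Filled points passed the test. *Tagln* (1.57 and 3.005) and both *Tpm2* probes lie to the right at both stages, and *Acta2* lies to the left (-0.81 and -2.79).

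Both probes for *Tpm2*, beta-tropomyosin, rose in the high fraction at both stages. The brighter probe, at chr4:43532262-43532321 (mm9), gave 402, 458, 453 and 402 in EL and 898, 1022, 844 and 955 in EH. It gave 149, 96.7, 179.8 and 135 in PL and 718, 543, 385 and 489 in PH. No pair of fractions overlapped, and the order of the groups was EH, PH, EL and PL, with PH and EL overlapping. EH was 2.17-fold above EL (log2 difference 1.12, adjusted p = 0.00169), and PH was 3.81-fold above PL (1.93, adjusted p = 8.4e-06). The dimmer probe, at chr4:43531276-43531335, gave 119 to 149 in EL and 270.3 to 324 in EH, against 26.4 to 57.3 in PL and 119.6 to 213 in PH. Its differences were 2.28-fold at E15.5 (adjusted p = 0.00264) and 4.35-fold at P2 (adjusted p = 1.08e-05). The brighter probe's E15.5 difference was 1.25 within slide 1 (adjusted p = 0.0169) and 0.89 within slide 2, with its single EH sample (adjusted p = 0.241).

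*Tpm1*, alpha-tropomyosin, is spliced into striated muscle, smooth muscle and non-muscle forms, and its 5 probes lie in 4 places of the gene, since 2 of them overlap. The probe sequences that lie in coding stretches of *Tpm1* and *Tpm2* are given because they show which piece of each gene was measured; they are written on the strand of the transcript, with positions in mm9.
Tpm1 NM_001164249, chr9:66871166-66871225, minus strand: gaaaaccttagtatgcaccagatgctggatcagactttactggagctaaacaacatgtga
Tpm1 NM_001164251, chr9:66880274-66880333, minus strand: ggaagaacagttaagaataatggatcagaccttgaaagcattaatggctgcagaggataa
Tpm2 brighter probe, chr4:43532262-43532321, minus strand: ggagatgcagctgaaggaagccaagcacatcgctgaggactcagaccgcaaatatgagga
Tpm2 dimmer probe, chr4:43531276-43531335, minus strand: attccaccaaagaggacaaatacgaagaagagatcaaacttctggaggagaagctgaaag

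The brightest *Tpm1* probe (NM_001164248, chr9:66875796-66875855) gave 125995, 122375, 127104 and 130281 in EL and 156127, 153141, 139651 and 153142 in EH. It gave 212870.0, 199892, 187445 and 205882 in PL and 187445, 205883, 227022 and 220267 in PH. EH lay above EL without overlap and the P2 fractions overlapped. EH was higher by 0.25 on the log2 scale (adjusted p = 0.0361), but the call was lost with the sample number as a block (adjusted p = 0.117) and without any of 7 of the 8 E15.5 samples (adjusted p up to 0.0961), and the difference was -0.15 when signals were scaled to the 75th percentile. A second probe of the same transcript, which shares 46 bases with the brightest one, had a difference of 0.16 (adjusted p = 0.241). At P2 both probes differed by less than 0.1 (log2 differences 0.06 and 0.03).

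The 3 dimmer *Tpm1* probes did not share 1 pattern. The NM_001164249 probe gave 74.6, 63.5, 97.9 and 74.8 in EL and 195, 197, 171 and 206 in EH. It gave 211, 137, 55.4 and 57.9 in PL and 183, 106, 121 and 82.0 in PH. The E15.5 fractions were apart, and PL spread more widely than any other group. EH was 2.50-fold above EL (log2 difference 1.32, adjusted p = 0.0452), a call that was lost with the slide as a block (adjusted p = 0.0738) and in 10 of 16 fits that left out 1 sample but kept with the sample number as a block (adjusted p = 0.0199), and PH differed from PL by 0.26. The NM_001164251 probe gave 29.6 to 47.1 in EL and 61.3 to 106 in EH, without overlap but not past the test (0.94, adjusted p = 0.0880), and 73.8 to 115 in PL and 56.5 to 167 in PH. The NM_001164255 probe passed the test in no comparison, with signals of 269 to 465 in all 16 samples.

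**Figure D3:**
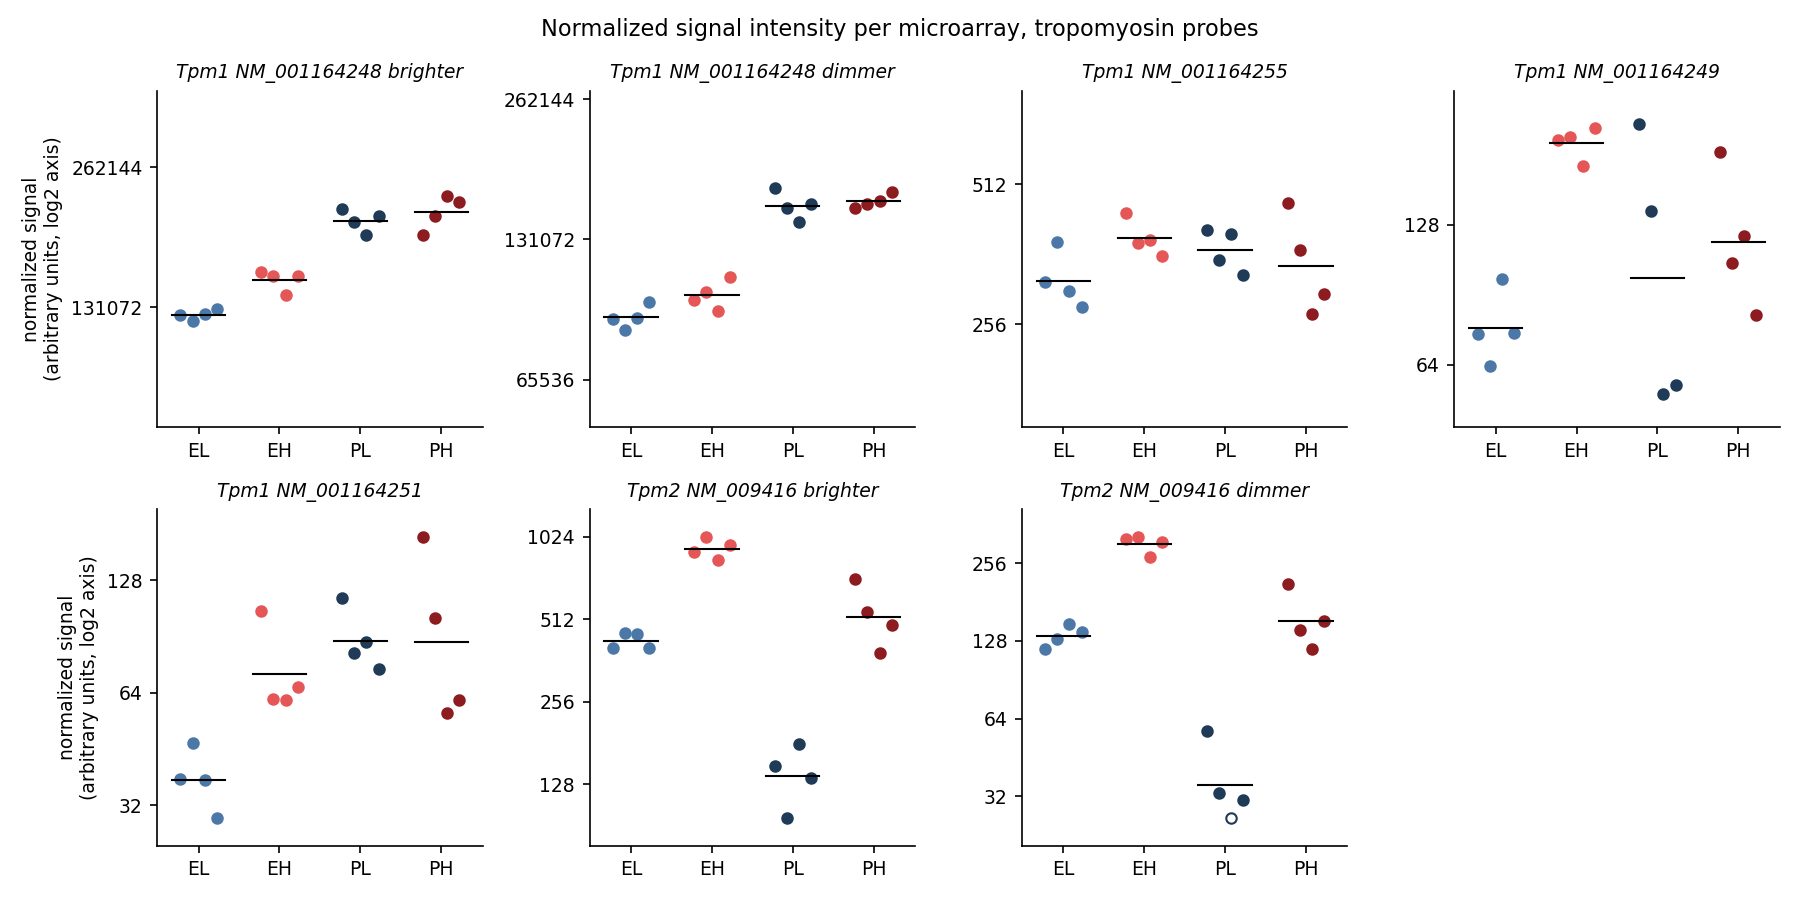
Normalized signal intensity (log2 axis, arbitrary units) of the 5 *Tpm1* and 2 *Tpm2* probes on each microarray, by group. Each point is 1 sample, an open point is not well above background, and the black line is the mean of the log2 signals. Both *Tpm2* probes are lowest in PL (brighter probe 96.7 to 179.8), while the *Tpm1* probe for NM_001164249 lies at 63.5 to 97.9 in EL and at 171 to 206 in EH.

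Whether the fraction difference itself differed between stages was tested as an interaction, the log2 difference PH against PL minus EH against EL. Of the 17 probes 3 passed it, *Cnn1* and *Tagln* with a wider positive difference at P2 and *Acta2* with a wider negative one, against 3.15% of all probes, 1.81% higher and 1.35% lower. A change of at least 3-fold in addition was seen for *Cnn1* and *Acta2* (0.602% of all probes upwards and 0.602% downwards). The interaction was 2.00 for *Cnn1* (SE 0.260, adjusted p = 0.000628), 1.44 for *Tagln* (SE 0.299, adjusted p = 0.0169) and -1.97 for *Acta2* (SE 0.345, adjusted p = 0.00556). The *Tagln* call was lost with the sample number as a block (adjusted p = 0.0553). The arrays of 1 scan day alone gave a smaller fit, without EL 3, EL 6 and EH 6. In it *Cnn1* was the only probe of the 17 to pass, with -2.07 and an adjusted p of 0.0522 for *Acta2* and 1.33 and 0.164 for *Tagln*. For *Acta1* the interaction was -1.35 (adjusted p = 0.103), which passed without PL 3 (-1.63, adjusted p = 0.0140) and without PH 2 (-1.57, adjusted p = 0.0402), and with all samples under normexp (adjusted p = 0.0451) and with only measured probes tested (adjusted p = 0.0408). For the brighter *Tpm2* probe it was 0.81 (adjusted p = 0.159), and for the dimmer one 0.93 (adjusted p = 0.149, and past the test with the sample number as a block, adjusted p = 0.0195). For the dimmer *Smtn* probe the interaction was -0.68 (adjusted p = 0.134), and past the test with the sample number as a block (adjusted p = 0.0497). It also passed in 1 of 16 fits that left out 1 sample (adjusted p = 0.0473). For *Mylk* NM_139300 it was 1.69 (adjusted p = 0.0588) and rested on PL values below the limit of measurement, with adjusted p-values of 0.0486 without PL 3 and 0.00779 without PH 3 and a turned direction, -0.44, with dim signals raised to the lowest measured one.

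Between the stages, *Tagln*, *Cnn1*, *Actg2* and *Tpm2* had lower signals at P2 than at E15.5 in both fractions, and *Smtn* and the brightest *Tpm1* probes had higher ones. In PL against EL, 11 probes passed the test, 5 higher and 6 lower, against 9.70% and 10.0% of all probes and 19.7% in either direction, and 12 did not overlap against 20.9%. Past the 3-fold limit were 2 higher and 6 lower (1.60% and 2.15% of all probes), of which *Actg2* and *Mylk* count by fitted values against PL samples below background and not by a bound. In PH against EH, 11 passed it, 4 higher and 7 lower, against 9.12% and 8.37% and 17.5% in either direction, and 11 did not overlap against 24.5%. Past the 3-fold limit were 0 higher and 4 lower (1.30% and 2.10% of all probes). The stages were hybridized on different slides and sorted by different procedures, and these cannot be told apart from stage. The stage comparisons share the samples of all 4 groups with the fraction comparisons.

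*Cnn1* fell 12.9-fold in the low fraction (log2 difference -3.69, adjusted p = 1.5e-08) and 3.22-fold in the high one (-1.69, adjusted p = 1.84e-05). *Tagln* fell 5.67-fold in the low fraction (adjusted p = 1.42e-06) and 2.09-fold in the high one (adjusted p = 0.00249). The brighter *Tpm2* probe fell 3.13-fold and 1.78-fold (adjusted p = 2.28e-05 and 0.00647). *Actg2* was at least 2.29-fold lower in PL than in EL (adjusted p = 0.000319) and at least 3.05-fold lower in PH than in EH (adjusted p = 0.000605), and with normexp the log2 differences were -0.72 and -0.83. The drop of *Tagln* and *Cnn1* was thus smaller in the fraction where both genes were brighter, which is the interaction given above read the other way.

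*Acta2* and *Acta1* fell in the high fraction, by 6.06-fold (log2 difference -2.60, adjusted p = 4.92e-06) and 3.102-fold (-1.63, adjusted p = 0.000860). In the low fraction their differences were -0.63 (adjusted p = 0.09996, and 0.0318 without PL 5) and -0.28 (adjusted p = 0.594). *Smtn* rose in both fractions on both probes, 4.28-fold and 3.66-fold in the low fraction (adjusted p = 1.61e-05 and 1.02e-06) and 2.91-fold and 2.28-fold in the high one (adjusted p = 0.000291 and 7.38e-05). The brightest *Tpm1* probe rose by 0.67 and 0.48 on the log2 scale (adjusted p = 7.25e-06 and 0.000174). *Tpm1* NM_001164251 rose 2.36-fold in the low fraction (adjusted p = 0.00990). *Mylk* NM_139300 was past the test downwards in PL against EL (adjusted p = 0.000230), but it was well above background on 2 of 4 EL and 0 of 4 PL microarrays, so no fold is given. The call was lost with normexp (-0.28, adjusted p = 0.0562), and the difference was 0.11 with dim signals raised to the lowest measured one.

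**Figure D4:**
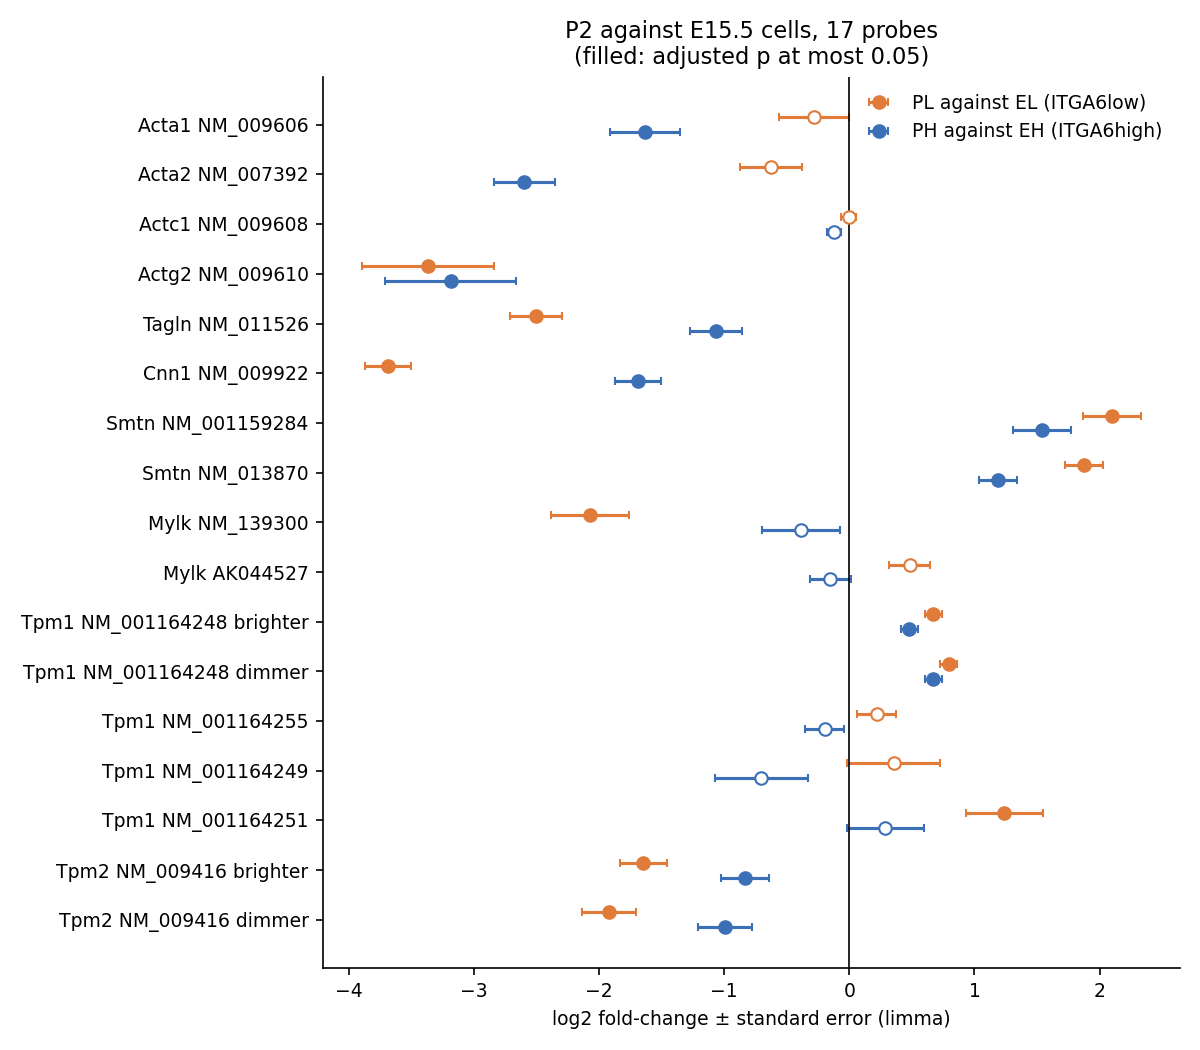
Log2 fold-change between P2 and E15.5 for the 17 probes, in ITGA6low cells (orange, PL against EL) and in ITGA6high cells (blue, PH against EH), with bars of 1 SE from the limma fit. Filled points passed the test. *Cnn1* lies furthest to the left in the low fraction (-3.69), and both *Smtn* probes lie to the right in both fractions.

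A set of 4 lists of related genes, none of which holds the 10 genes themselves, places these values beside their pathways. The list of 22 genes of the striated thin filament and its capping proteins, the apparatus in which *Actc1*, *Acta1* and *Tpm1* work, had 3 genes higher and 3 lower in EH against EL and 3 higher and 4 lower in PH against PL, with median log2 differences of 0.09 and -0.03. For this and the following lists, the shares of all probes past the test were 4.27% higher and 3.83% lower in EH against EL, 6.15% and 5.41% in PH against PL, 9.70% and 10.0% in PL against EL and 9.12% and 8.37% in PH against EH. *Tnnt2*, cardiac troponin T, had the highest probe signal of the list as a mean of log2 signals over the 16 microarrays, which here and for the other lists does not rank the transcripts themselves. *Tnnt1*, the slow skeletal troponin T, rose most in PH, from 9668 ± 887 in PL to 44072 ± 6003 (SD, n = 4; log2 difference 2.18, adjusted p = 3.69e-08), and *Tnnc2*, the fast skeletal troponin C, fell by 0.93 (adjusted p = 0.0446), measured on 3 of 4 PL and 1 of 4 PH microarrays. At E15.5, *Lmod3*, a leiomodin that nucleates and lengthens thin filaments, fell from 3121 ± 463 in EL to 1286 ± 59.5 in EH (-1.27, adjusted p = 4.3e-06), and *Neb*, nebulin, rose by 1.45 (adjusted p = 0.0423), measured on 2 of 4 EL and 4 of 4 EH microarrays. With stage 16 of the 22 genes rose and 1 fell in the low fraction and 11 rose and 1 fell in the high one, with median log2 differences of 0.66 and 0.47 beside -0.01 and 0.02 over all probes well above background.

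The 16 genes of the non-muscle actin cytoskeleton had 0 past the test in EH against EL and 6 higher with 0 lower in PH against PL, with a median of 0.02 and 0.38. *Tpm4*, a non-muscle tropomyosin, rose most, from 189 ± 13.2 in PL to 482 ± 72.9 in PH (log2 difference 1.34, adjusted p = 3.4e-05). *Actg1*, cytoplasmic gamma-actin, with the highest mean log2 signal of the list, gave 26525 ± 5877 in PL and 21217 ± 4359.9 in PH and did not pass the test (-0.32, adjusted p = 0.302). Between the stages 13 of the 16 genes were lower in PL than in EL and 10 lower in PH than in EH, while 2 and 1 were higher.

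The 23 genes of smooth muscle contraction and its regulators had 3 higher and 4 lower in EH against EL and 8 higher and 3 lower in PH against PL, with medians of -0.06 and 0.0043, and 19 of the 23 were well above background in a group. *Myl9*, a regulatory light chain of smooth muscle and non-muscle myosin and the gene of highest probe signal in the list, rose in both, to 227484 ± 14401 in EH over 102008 ± 6415 in EL (log2 difference 1.16, adjusted p = 0.000237) and to 196076 ± 8370.1 in PH over 75781 ± 19509 in PL (1.41, adjusted p = 2.16e-05). *Pln*, phospholamban, the inhibitor of the calcium pump of the sarcoplasmic reticulum, fell from 2409 ± 125 to 950.3 ± 192 at E15.5 (-1.36, adjusted p = 0.000409) and from 9750.4 ± 2847 to 1045 ± 202 at P2 (-3.20, adjusted p = 8.73e-08). *Mylk4*, a kinase related to *Mylk*, was well above background in PH only, where it was at least 2.69-fold above PL (adjusted p = 7.28e-07). *Synpo2*, which binds actin at the Z-disc, rose by 1.28 in EH (adjusted p = 0.0278), measured on 1 of 4 EL and 4 of 4 EH microarrays.

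Serum response factor and its cofactors drive many actin and smooth muscle genes. Of 10 such genes, 1 was higher and 3 lower in EH against EL, and 3 higher and 1 lower in PH against PL, with medians of 0.13 and 0.03. *Mkl2*, a myocardin-related coactivator, rose by 0.83 in EH (adjusted p = 1.74e-05), while *Gata4*, a cardiac transcription factor, fell by 0.57 (adjusted p = 4.4e-05). *Mef2c*, a muscle transcription factor, rose by 0.52 in PH (adjusted p = 0.00425), and *Hopx*, which restrains serum response factor, fell by 0.97 there (adjusted p = 1.64e-06). *Fhl2*, a LIM-domain cofactor and the gene of highest probe signal in the list, did not pass the test in either fraction comparison.

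Since *Acta2*, *Tagln*, *Cnn1*, *Actg2* and *Mylk* are also made by smooth muscle cells, pericytes and other non-myocytes, marker lists of these cells were read in every sample. Of 8 smooth muscle and pericyte markers, 3 were higher and 1 lower in EH against EL and 0 higher and 2 lower in PH against PL. *Myh11* and *Lmod1*, which define contractile smooth muscle, were well above background on 0 of 16 microarrays. The summed signal of the list was 2707 to 3585 in EL and 1794 to 2141 in EH, against 4619.6 to 5299.9 in PL and 1022 to 1388 in PH. Most of it came from *Abcc9*, a potassium channel subunit, and *Cspg4*, the NG2 proteoglycan, which is named after its values were seen. The sum therefore mainly follows these genes and does not rank the groups by their share of smooth muscle cells or pericytes. *Cspg4* gave 1682 ± 156 in EL and 532 ± 41.7 in EH (SD, n = 4), where *Abcc9* gave 1236 ± 299 and 1060.2 ± 143. At P2 *Cspg4* gave 1256 ± 154 in PL and 412 ± 30.8 in PH, and *Abcc9* 3539.7 ± 159 and 663 ± 155. *Rgs5*, a pericyte marker, was well above background only in EH, where it was at least 2.09-fold above EL, and *Pdgfrb* and *Notch3* on all 8 E15.5 microarrays and on none at P2. The other markers that rose in EH were *Pdgfrb*, from 29.8 ± 4.64 to 64.0 ± 8.80 (adjusted p = 0.0145), and *Kcnj8*, a potassium channel, from 40.4 ± 11.9 to 136.6 ± 17.5 (adjusted p = 0.000126).

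Most of the endothelial markers moved with the E15.5 fractions. Of 7 markers 5 were higher in EH than in EL and 0 lower, with *Cdh5*, *Tie1* and *Emcn* well above background only in EH, at least 9.003-fold, 7.04-fold and 3.79-fold above EL. *Pecam1* and *Tek* were below this mark on all EL and measured on 3 of 4 EH microarrays. *Kdr* was measured on every microarray and went the other way without passing the test, with 1037 ± 74.8 in EL and 834 ± 197 in EH (SD, n = 4). *Egfl7*, with the highest mean log2 signal of the list, gave 965 ± 113 in EL and 5536 ± 2493 in EH (SD, n = 4). The summed signals in EH were 4754, 3945, 9495 and 9269.6, higher in EH 6 and EH 8 than in EH 2 and EH 3. None of the 7 passed the test in PH against PL, where the sums were 801 to 2096 and 1376 to 2150.3.

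Fibroblast and epicardial markers moved with stage. Of 8 fibroblast markers, among them *Col1a2* with the highest mean log2 signal, 7 were lower in PL than in EL and 8 lower in PH than in EH, with sums of 12833 to 22360.1 in EL and 5437 to 10462 in EH, against 523 to 1627 in PL and 545 to 801 in PH. All 5 epicardial markers, among them *Msln* with the highest mean log2 signal, were lower at P2 in both fractions, with sums of 1466 to 2405 in EL and 406 to 1804 in EH, against 40.0 to 152 in PL and 78.4 to 163 in PH. Between the fractions 0 fibroblast markers passed the test at E15.5 and 1 was lower in PH than in PL, and 1 epicardial marker was lower in EH and 1 higher in PH. The part that non-myocytes had in the signals of the 10 genes was not tested. All 6 pan-cardiomyocyte markers were well above background on every microarray, with sums of 185263 to 222022 in EL and 370650 to 417471 in EH, against 445926 to 495565 in PL and 411735 to 485908 in PH. *Myh6*, the alpha-myosin heavy chain, with the highest mean log2 signal of the list, gave 69327 ± 9109 in EL and 246810.0 ± 14871 in EH. This made up most of the rise of the sum from EL to EH. Of the 6 markers 1 was higher and 1 lower in EH against EL (median log2 difference 0.07). In PH against PL 0 were higher and 2 lower (median -0.10).

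**Figure D5:**
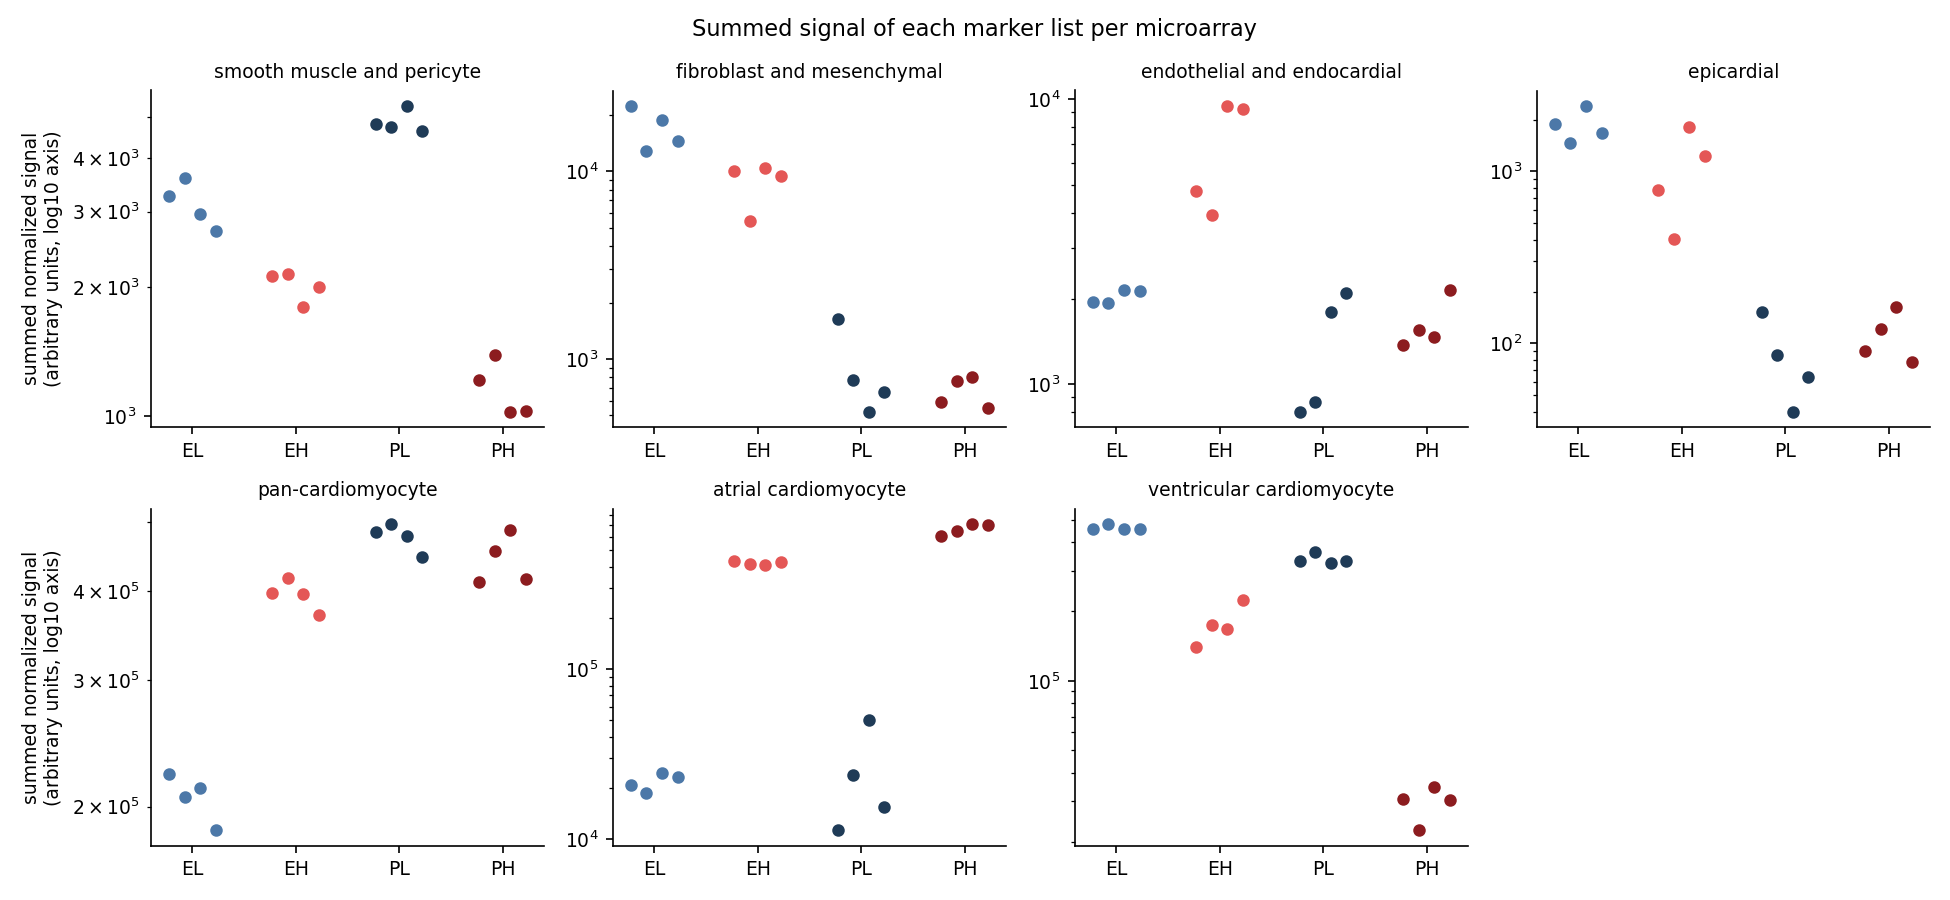
Summed normalized signal intensity (log10 axis, arbitrary units) of 7 lists of cell type markers on each of the 16 microarrays, by group. Each point is 1 sample. The atrial sums lie at 409195 to 432380.0 in EH and at 18615 to 24334 in EL, the endothelial sums are highest in EH (3945 to 9495), and the fibroblast sums are highest at E15.5.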

How the data were processed

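RNA of 16 samples was hybridized to 1-colour Agilent 8x60K microarrays. For each array the authors deposited what Feature Extraction 10.7.3.1 wrote, where the processed signal intensity of a spot already has its background subtracted. Normalized log2 values that the authors deposited served here only as an alternative. Per the file headers, probe positions are in mm9. From 59305 spots that are not controls, outlier spots were left out and the others averaged per probe (55681 probes, 432 with up to 10 spots, 8 lacking a value on some microarray). Signals were quantile normalized, transformed to log2 and given a mean per group in limma (version 3.58.1, R version 4.3.3). A probe counted as well above background where more than 0.5 of its spots did. No spot of the 10 genes was saturated, and no 2 microarrays were identical. Precision is limited by 4 microarrays per group, and p-values measure the spread between these pooled samples.

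The 10 genes and all gene lists were chosen with earlier results of these data known. All 10 genes are named, and 1 probe stands for a gene where it has the highest mean signal. From each pathway list the text names the genes past the test with the largest positive and negative change in each fraction comparison and the gene of highest mean signal. From each marker list it names the gene of highest mean log2 signal and, of the smooth muscle, pericyte and endothelial lists, defining markers below background in at least 1 group. *Cspg4*, *Kcnj8* and *Kdr* were added after their values were seen. As nearest patterns it gives the 3 genes with the highest r. In tests on simulated data of 55681 probes, 100 probes were changed 2-fold and 100 were changed 3-fold in both high fractions. Of these, 47 and 80 were recovered in EH against EL, and 46 and 81 in PH against PL. In the real data 4509 and 6436 probes were past the test in these comparisons. With so many more probes changed, the adjustment of p-values differs, and the simulated shares do not give the sensitivity in the real data.

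Sample numbers were checked for pairing on deviations from group means. At E15.5 r between samples of 1 number was 0.256, 0.189, 0.450 and 0.379, which exceeds the limit of 0.1 in each case, so that the numbers read as pairs. In P2 the values were 0.375, 0.176, -0.0305 and 0.542. Only number 4 fell below the limit there, so that the P2 numbers were not all read as pairs. The main fits held no block at either stage, and the sample number entered as a block in an alternative fit only. E15.5 lay on 2 slides (slide 1 with EL samples 2 and 8 and EH samples 2, 3 and 8; slide 2, of a different scan day, with EL samples 3 and 6 and EH sample 6) and P2 on 1. Promoters are those of RefSeq GRCm38.p6. Summaries used pandas 2.3.3 and numpy 2.4.6 under Python 3.11.15, and plots used matplotlib 3.10.9.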

Additional observations from a re-analysis of the deposited data

Results flagged for a closer look

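In 6 of 68 sets of 4 samples, 1 sample of a group stood far from the other three, measured by its gap to the nearest of them over the range of the group, and chance alone gives such a gap in about 1 in 20 sets. *Cnn1* in PL 3 was 748, below 1243 to 1336 in the other PL samples. *Actg2* in PL 3 was 7.53 and *Mylk* NM_139300 in PL 3 was 5.23, above 3.56 to 3.59 and 3.40 to 3.44, but no PL sample was well above background for either. *Tpm1* NM_001164251 in EH 2 was 106, above 61.3 to 66.4. *Actc1* in EL 2 was 297935 against 286777 in the others, and in EH 6 it was 272116 against 297935, each a step of rank among the brightest probes.

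The fraction difference itself differed between E15.5 and P2 for 3 genes by the interaction test, with log2 values of -1.97 for *Acta2*, 1.44 for *Tagln* and 2.00 for *Cnn1*. Slide and sorting procedure also differed between the stages and cannot be told apart from stage here. The *Tagln* call was lost with the sample number as a block (adjusted p = 0.0553). On the arrays of 1 scan day, a smaller fit without EL 3, EL 6 and EH 6, the calls of *Acta2* and *Tagln* were lost. The log2 values there were -2.07 and 1.33 (adjusted p = 0.0522 and 0.164).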

How the results depend on the processing

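The counts of probes past the test were 6 in EH against EL, 7 in PH against PL, 3 for the interaction and 11 in each stage comparison. Leaving out 1 sample in turn gave 4 to 8, 7 to 8, 3 to 5, 11 to 13 (PL against EL) and 11 to 11 (PH against EH). The interaction gave 5 without PL 3, 5 without PH 2 and 5 when only probes well above background were tested. It gave 1 on the arrays of 1 scan day, a smaller fit without EL 3, EL 6 and EH 6. EH against EL gave 0 within slide 2, which held 1 EH and 2 EL microarrays, so that this count says little. The cause was not tested. The sample number as a block left 6 probes in EH against EL, 5 higher and 1 lower (*Acta2*), 7 in PH against PL and 4 for the interaction. At P2, where the numbers did not all pair, this is a fit by number only. Over 50 single-gene differences, 1270 of 1350 values kept direction and side of the threshold, 25 lost the call, 22 gained it and 33 changed sign. None of the sign changes concerned a call except that of the brightest *Tpm1* probe in EH against EL (-0.15 and -0.059 when scaled to the 75th percentile of all probes or of those measured on all arrays), of *Mylk* in PL against EL (0.11 with dim signals raised to the lowest measured one) and of *Tpm1* in PH against EH (-0.20 as the median over its probes). The same 2 scalings gave *Actc1* -0.24 and -0.15 in EH against EL, 0.38 and 0.33 in PL against EL and 0.13 and 0.062 in PH against EH, *Tpm1* -0.26 and -0.19 in PH against PL, and *Actg2* -0.0074 and -0.035 for the interaction. *Actc1* in EH against EL was -0.081 with normexp background correction, -0.0093 with the slide as a block and -0.076 within slide 2, and its interaction was 0.038 with normexp. *Actg2* gave -0.13 in PH against PL and -0.41 for the interaction with raised dim signals and -0.10 with normexp, *Mylk* -0.44 for the interaction with raised dim signals, and *Tpm1* -0.11 in PH against PL as the median over its probes. Leaving out 1 sample in turn took *Acta1* in PL against EL from -0.49 to 0.00033, *Actc1* from -0.0023 to 0.041 in EH against EL and from -0.021 to 0.023 in PL against EL, and *Actg2* from -0.0054 to 0.63 in EH against EL and from -0.28 to 0.48 for the interaction. The scaling on probes measured on all arrays and the arrays of 1 scan day were chosen after seeing the data.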

Other observations

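Over the 16 microarrays the brightest probes of the 10 genes fell into sets that rose and fell together, as described by Pearson's r of log2 signals. All points share the 4 groups, the slides and the quantile normalization, so that r mainly describes the pattern of 4 group means. *Tagln* and *Tpm2* were closest (r = 0.99), followed by *Tagln* with *Mylk* (0.94), *Cnn1* with *Tagln* and with *Tpm2* (0.91 each) and *Mylk* with *Tpm2* (0.90). The *Mylk* probe was well above background on 9 of 16 microarrays and on none in PL, so that its r rests in part on signals below that mark. *Acta1* went with *Acta2* (0.91) and *Smtn* with *Tpm1* (0.86). *Actg2*, with its P2 values below the limit of measurement, ran opposite to *Smtn* (-0.91). For *Acta2* with *Tagln* r was -0.22, although their fraction differences had opposite signs at both stages.

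Outside the 10 genes, the nearest patterns were sought in 15634 probes of named genes. Each of these probes was well above background on every microarray of at least 1 group, and the best probe stood for a gene. *Cnn1* was closest to *Myl6*, the essential light chain of smooth muscle and non-muscle myosin (r = 0.996), which was itself on the list of smooth muscle contraction and gave 10839 ± 851 in PL and 22473 ± 2364 in PH (SD, n = 4; limma adjusted p = 8.01e-07), followed by *Rps12*, a ribosomal protein gene (0.990), and *Gm10080* (0.989). *Acta2* was closest to *Tceal7* (0.988), *Irx1*, a homeobox gene of the ventricular septum (0.969), and *S1pr3*, a receptor for sphingosine-1-phosphate (0.968). *Tagln* was closest to *Aebp1* (0.982), *Dusp6*, a phosphatase of ERK (0.981), and *Rcn1* (0.978). *Tpm2* was closest to *Gipr* (0.977), *Rps6ka1* (0.977) and *Dusp6* (0.974). *Mylk*, with its PL values below the limit of measurement, was closest to *Tgfb3* (0.963), *Rapgef3* and *Spred1*, and *Smtn* to *Sned1* (0.984), *Ppm1j* and *Fbrsl1*. *Tpm1* was closest to *Txlnb* (0.989), *Tex2* and *BC004004*, and *Acta1* to *Bcl2* (0.922), *Mov10* and *Ampd2*. *Actg2* was closest to *Ruvbl1* (0.958), *Bcl11a* and *Hdac1*, with its P2 values below the limit of measurement, and *Actc1*, whose values follow its rank, reached 0.846 with *Zmym5*, followed by *Gm9892* and *Lrba*.

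Among genes not named above, *Srf* itself passed the test in PH against PL (4079 ± 262 and 5479 ± 593, log2 difference 0.42, limma adjusted p = 0.00651), and *Myocd*, the cardiac and smooth muscle coactivator of serum response factor, passed it downwards in EH against EL (3216 ± 166 and 2192 ± 117, -0.55, limma adjusted p = 0.0197). Both were chosen after their values were seen. The fraction differences of *Cfl1*, *Tmsb4x*, *Myh10* and *Tpm4*, all of the non-muscle actin list, were more positive at P2 than at E15.5 by the interaction test, and no gene of that list of 16 passed it in the other direction, where 1.81% of all probes passed upwards and 1.35% downwards.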
